A study of Mus musculus with 12 samples.

Results

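Carboxylesterases are serine hydrolases of the endoplasmic reticulum that are abundant in liver, and 9 of their mouse genes, Ces1d, Ces1e, Ces1f, Ces1g, Ces2a, Ces2c, Ces2e, Ces3a and Ces3b, were listed for description here. A member was any transcript cluster (the set of probes that the array summarises into 1 value) whose single gene symbol in the platform annotation was one of these names. This gave 8 clusters for 8 of the 9 genes, of 21789 clusters with 1 symbol and 35557 clusters in all, and Ces2c was not analysed here. The values are log2 RMA signals from total liver RNA on Affymetrix mouse Gene Level 1.0 ST arrays, with 12 arrays in 4 groups of 3. Hypothyroid liver came from L-NCoR∆ID mutants (numbered 5, 6 and 7) and their controls (17, 18 and 20). Euthyroid liver came from mutants of the same kind (2, 3 and 4) and their controls (13, 14 and 15). In the mutants the nuclear receptor corepressor NCoR is altered, and the series title calls such livers NCoR deficient. The sources used here do not give the allele's driver, the way mice were made hypothyroid, or their strain, sex and age. The labels give 1 array per replicate number and do not say more about the animals, so p-values measure the spread between these samples.

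Carboxylesterases split ester, amide and thioester bonds. In mouse liver some of them hydrolyse stored triglyceride for the assembly of very low density lipoprotein, and others inactivate or activate drugs and other foreign esters. NCoR is brought to genes by nuclear receptors, among them thyroid hormone receptors without hormone, and its complex removes acetyl groups from histones. The design therefore asks, for each carboxylesterase, how its signal differed with the corepressor altered and with thyroid hormone low.

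The genes lie on mouse chromosome 8 in 2 groups. The RefSeq gene table of assembly GRCm38.p6 orders the first as Ces1a, Ces1b, Ces1c, Ces1d, Ces1e, Ces1f, Ces1g, Ces1h and Ces5a. After 68 protein-coding genes it orders the second as Ces2a, Ces2b, Ces2c, Ces2d-ps, Ces2e, Ces2f, Ces2g, Ces2h, Ces3a, Ces3b and Ces4a. RefSeq promoters (250 bases before to 50 after the start of the gene, GRCm38.p6) were at hand for 6 of the 9 listed genes, Ces1e, Ces1g, Ces2a, Ces2c, Ces2e and Ces3b. The promoters of 4 genes whose signal differed between groups are shown. Ces2a and Ces2e both lie in the second group of genes and were called in different comparisons. Ces1g and Ces3b moved opposite ways in hypothyroid liver. In the first pair, capitals mark runs of at least 10 bases that the 2 promoters share.
Ces2a, chr8:104733753-104734052, plus strand: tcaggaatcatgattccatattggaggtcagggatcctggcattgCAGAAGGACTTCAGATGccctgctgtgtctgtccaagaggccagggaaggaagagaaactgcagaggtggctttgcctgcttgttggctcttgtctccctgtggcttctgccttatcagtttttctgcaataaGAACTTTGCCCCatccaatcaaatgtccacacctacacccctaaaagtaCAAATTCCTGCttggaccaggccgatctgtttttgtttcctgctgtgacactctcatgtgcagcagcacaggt
Ces2e, chr8:104926010-104926309, plus strand: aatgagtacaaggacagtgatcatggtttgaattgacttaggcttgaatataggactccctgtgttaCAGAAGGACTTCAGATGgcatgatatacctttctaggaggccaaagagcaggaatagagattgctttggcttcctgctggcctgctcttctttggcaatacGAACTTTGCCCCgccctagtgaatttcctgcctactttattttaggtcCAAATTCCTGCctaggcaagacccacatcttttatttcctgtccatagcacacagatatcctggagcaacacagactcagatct
The pair shared 3 such runs, 40 bases in all. Ces2a with Ces2c, and Ces1e with Ces1g, shared 2 runs and 21 bases each, and Ces1e with Ces3b 1 run of 10 bases. The runs below were found by comparing Ces2a with Ces2e, so these 2 promoters are part of each count of promoters. The 17-base run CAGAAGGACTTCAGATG stood at -205 to -189 in Ces2a and at -183 to -167 in Ces2e, and 2 of 32851 promoters held it. The run GAACTTTGCCCC stood in 3 promoters and CAAATTCCTGC in 8.

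In the second pair, capitals mark matches on either strand to CCAAT or TATAAA, common promoter elements.
Ces1g, chr8:93337160-93337459, minus strand: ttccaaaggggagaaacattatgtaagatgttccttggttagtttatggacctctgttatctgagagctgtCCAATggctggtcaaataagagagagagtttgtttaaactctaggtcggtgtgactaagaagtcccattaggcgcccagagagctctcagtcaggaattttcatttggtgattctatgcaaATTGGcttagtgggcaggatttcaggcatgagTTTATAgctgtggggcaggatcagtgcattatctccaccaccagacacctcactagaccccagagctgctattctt
Ces3b, chr8:105083505-105083804, plus strand: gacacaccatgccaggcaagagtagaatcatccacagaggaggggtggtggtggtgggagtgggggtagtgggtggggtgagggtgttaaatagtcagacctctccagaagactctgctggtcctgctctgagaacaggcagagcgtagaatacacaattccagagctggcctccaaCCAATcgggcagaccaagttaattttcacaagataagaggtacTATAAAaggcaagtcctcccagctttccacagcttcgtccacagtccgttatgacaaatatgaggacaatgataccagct
TATAAA was found in 2 of the 6 promoters and in 13.6% of all 32851, at -30 to -25 in Ces3b and on the opposite strand at -26 to -21 in Ces1g. CCAAT was found in 4 of the 6 (Ces1g, Ces2a, Ces2c and Ces3b) and in 37.4% of all. The half-site AGGTCA, which many nuclear receptors bind, was searched on both strands. It was found in 1 of the 6, at -226 to -221 in Ces2a directly after a CCAAT match that it does not overlap, and in 16.3% of all promoters. A direct repeat of that half-site with 4 bases between, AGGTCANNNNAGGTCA, which is the classic thyroid hormone receptor element, was in none of the 6 and in 0.0152% of all. A match describes these letters alone and is no measured binding site.

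Array medians lay between 4.16 and 4.32 (log2), and every array of every member lay above them. The 6 hepatocyte markers measured (Alb, Ttr, Apoa1, Tat, Cps1 and Cyp2e1, of 7 listed) had means per array of 12.77 to 12.91 in hypothyroid mutants, 12.80 to 12.85 in hypothyroid controls, 12.65 to 12.76 in euthyroid mutants and 12.73 to 12.79 in euthyroid controls. Of these 6, Ttr alone was called, higher in hypothyroid liver in the average over genotypes. Of the 7 Kupffer cell markers, which mark the resident macrophages of liver, none was called between genotypes in either thyroid state. The mean over the 7 per array was 5.52 to 6.31 in hypothyroid mutants against 5.36 to 5.50 in hypothyroid controls, and 6.37 to 7.37 in euthyroid mutants against 5.92 to 6.01 in euthyroid controls. These means did not overlap between genotypes. In euthyroid liver Adgre1, Clec4f, Cd5l, Vsig4 and C1qa each lay wholly higher in mutants, while C1qb and Marco overlapped. In hypothyroid liver Adgre1 and Cd5l did so, and the other markers overlapped. Groups did not overlap in 10.4% and 22.5% of all clusters in these comparisons. The median difference of the markers was 0.68 in euthyroid and 0.54 in hypothyroid liver, and that of Marco was -0.0143 in hypothyroid liver. The SD of an array's log2 values over all clusters was highest at 2.35 (hypothyroid mutant 7) and lowest at 2.22 (euthyroid control 14). These 2 arrays stood apart in an earlier analysis of these data, though hypothyroid mutant 6 had a near SD of 2.34. The SD also followed the groups. All 3 hypothyroid mutants (2.32, 2.34 and 2.35) lay above every other array (at most 2.31). Within each genotype every hypothyroid array had a higher SD than every euthyroid array. In bulk liver RNA, fewer cells of a type and less RNA per cell cannot be told apart. Carboxylesterase genes are near copies of one another, so probes of one may also read another, and each signal carries that uncertainty.

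Differences were tested with limma on all 21789 clusters with 1 symbol, a cluster was called at a Benjamini-Hochberg adjusted p under 0.05, and ± after a difference is its standard error (SE). Of the 8 members, Ces2a alone was called between genotypes, and Ces1g, Ces2e, Ces3a and Ces3b were called between thyroid states. Ces1d, Ces1e and Ces1f were called in no comparison. Over all clusters, groups did not overlap between thyroid states in 25.7% in mutants and 16.7% in controls, in either direction. Between genotypes the shares were 22.5% in hypothyroid and 10.4% in euthyroid liver. With 6 arrays against 6, they were 3.75% between thyroid states and 1.05% between genotypes. Statements below that arrays did not overlap are to be read beside these shares.

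**Figure D1:**
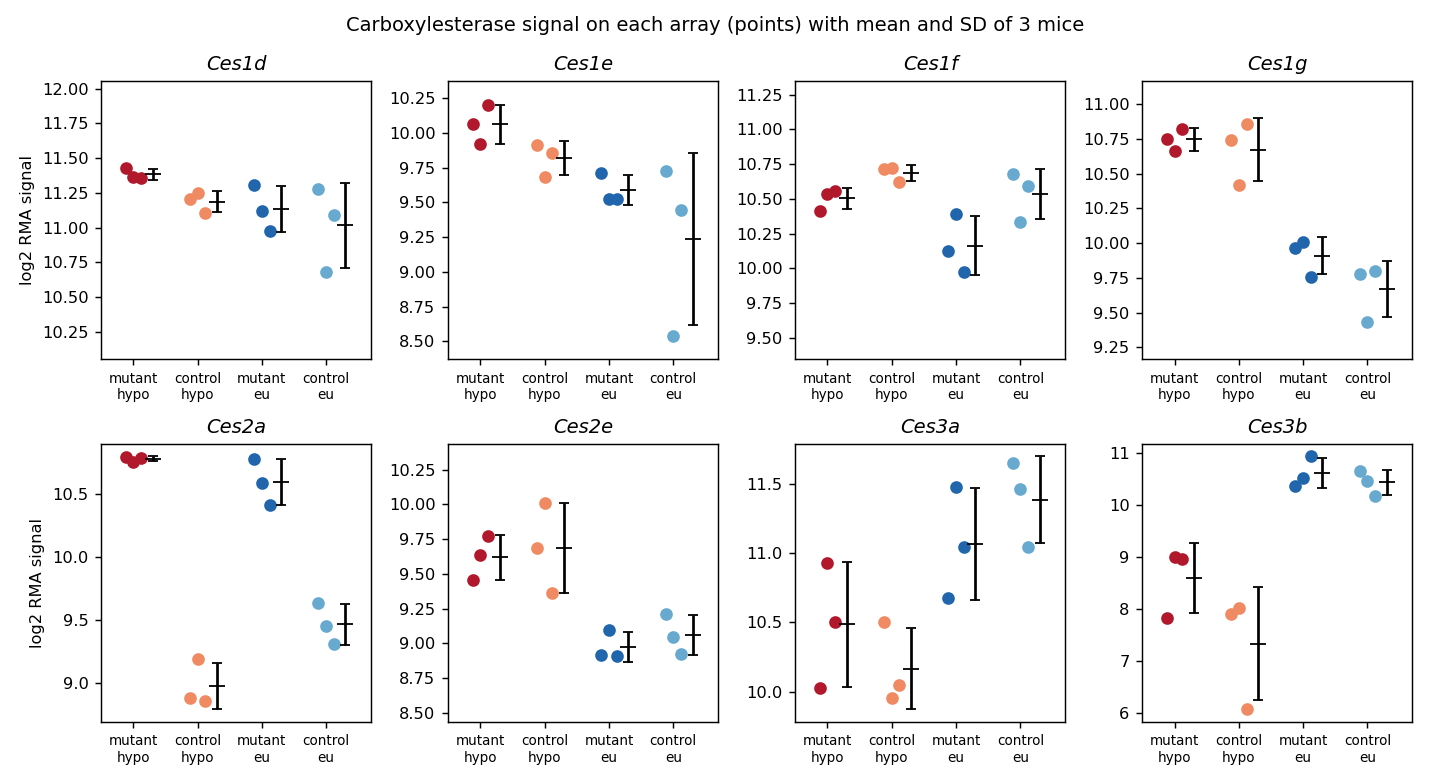
Log2 RMA signal (vertical axes, which do not start at 0 and differ between panels) of the 8 carboxylesterase clusters on each of 12 arrays, by group from left to right: hypothyroid mutants, hypothyroid controls, euthyroid mutants and euthyroid controls. Points are arrays, bars the mean and SD of 3. Ces2a separates by genotype, and Ces1g, Ces2e and Ces3b by thyroid state.

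Ces2a (cluster 10574498), a carboxylesterase of the subfamily that also holds the main intestinal drug esterase of humans, rose in the mutants in both thyroid states. Its log2 signal was 10.80, 10.76 and 10.79 in hypothyroid mutants, against 8.88, 9.19 and 8.86 in hypothyroid controls. In euthyroid liver it was 10.79, 10.59 and 10.42 in mutants, against 9.64, 9.45 and 9.31 in controls. All 6 mutant arrays lay above all 6 control arrays, and the closest, euthyroid mutant 4 and euthyroid control 13, were 10.42 and 9.64.

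The mutant minus control difference of Ces2a was 1.81 ± 0.140 in hypothyroid liver, or 3.50-fold (limma adjusted p = 2.49e-05), and 1.13 ± 0.140 in euthyroid liver, or 2.19-fold (limma adjusted p = 0.00347). By p-value it ranked 1 of 21789 clusters in hypothyroid liver and 5 in euthyroid liver, while by size it was the rise in place 15 and in place 49. Averaged over thyroid states the difference was 1.47 ± 0.0989, or 2.77-fold (limma adjusted p = 2.8e-06). In hypothyroid liver 0.216% of all clusters were called higher and 0.0459% lower, and in euthyroid liver 0.124% higher and 0.00459% lower, while the members gave 1 of 8 higher and 0 lower in each. Averaged over thyroid states these shares were 0.904% and 0.234%, again with Ces2a as the 1 member. The Ces2a calls held in every alternative run, between 1.73 and 1.91 in hypothyroid liver and between 1.04 and 1.22 in euthyroid liver. The mean of the Kupffer markers also separated the genotypes in each state, with 1 of the 7 genes, Adgre1, called higher in the average and 0 in either state; their part in the Ces2a result was not tested.

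Between thyroid states Ces2a was not called, and its differences had opposite signs in the 2 genotypes. The difference, hypothyroid minus euthyroid, was 0.18 ± 0.140 in mutants (limma adjusted p = 0.521, with overlapping groups) and -0.49 ± 0.140 in controls (limma adjusted p = 0.117), where all 3 hypothyroid arrays lay below all 3 euthyroid arrays. The control difference was called after quantile normalization (-0.61, adjusted p = 0.0404). The mutant effect in hypothyroid liver minus that in euthyroid liver was 0.68 ± 0.198 (unadjusted p = 0.0039 in limma, adjusted p = 1.00). No cluster in the table was called for that difference (0% of 21789), although 600 had an unadjusted p under 0.05, and Ces2a was the 1 member among them. Its group means were 10.78 in hypothyroid mutants (SD 0.0198, n = 3), 10.60 in euthyroid mutants (SD 0.184), 8.98 in hypothyroid controls (SD 0.185) and 9.47 in euthyroid controls (SD 0.164). Hypothyroid mutants stood highest and overlapped with euthyroid mutants, and hypothyroid controls stood lowest.

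Ces2e (cluster 10574545), a liver and intestinal carboxylesterase, was higher in hypothyroid than in euthyroid liver when the genotypes were averaged, and was not called between genotypes. Its signal was 9.45, 9.63 and 9.77 in hypothyroid mutants, against 8.91, 9.10 and 8.91 in euthyroid mutants, and 9.69, 10.01 and 9.36 in hypothyroid controls, against 9.21, 9.05 and 8.93 in euthyroid controls. In both genotypes all hypothyroid arrays lay above all euthyroid arrays. Group means were 9.62 in hypothyroid mutants (SD 0.160, n = 3), 9.69 in hypothyroid controls (SD 0.323), 8.97 in euthyroid mutants (SD 0.108) and 9.06 in euthyroid controls (SD 0.141). Averaged over genotypes Ces2e was higher in hypothyroid liver by 0.64 ± 0.113, or 1.55-fold (limma adjusted p = 0.00405), a call that was lost with the array SD as a covariate (0.50, adjusted p = 0.279). Within 1 genotype it was 0.65 in mutants (limma adjusted p = 0.0740) and 0.63 in controls (limma adjusted p = 0.0788), neither called. The mutant minus control difference of Ces2e was -0.07 in hypothyroid liver, with a 95% interval of -0.41 to 0.27, and -0.09 in euthyroid liver, with an interval of -0.43 to 0.25.

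Ces3b (cluster 10574607) fell most among the members, and was lower in hypothyroid than in euthyroid liver of both genotypes. Its signal was 7.82, 8.99 and 8.96 in hypothyroid mutants, against 10.37, 10.52 and 10.93 in euthyroid mutants. In controls it was 7.89, 8.01 and 6.07 in hypothyroid arrays, against 10.65, 10.46 and 10.17 in euthyroid arrays. No hypothyroid array reached any euthyroid array, and the gap between the highest hypothyroid value, 8.99, and the lowest euthyroid value, 10.17, spanned both genotypes. Group means were 8.59 in hypothyroid mutants (SD 0.665, n = 3), 7.32 in hypothyroid controls (SD 1.09), 10.60 in euthyroid mutants (SD 0.292) and 10.43 in euthyroid controls (SD 0.240). Within each thyroid state the genotypes overlapped.

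The hypothyroid minus euthyroid difference of Ces3b was -2.01 ± 0.413 in mutants, or 4.04-fold lower (limma adjusted p = 0.0271), and -3.11 ± 0.413 in controls, or 8.60-fold lower (limma adjusted p = 0.000944). By size it was the fall in place 17 of the table in mutants and in place 12 in controls. Averaged over genotypes it was -2.56 ± 0.292, or 5.90-fold lower (limma adjusted p = 0.000112). The control call held in all 19 alternatives and the averaged call in all 18, but the mutant call was kept in 11 of 19. It was lost when every cluster was tested (adjusted p = 0.121), with the array SD as a covariate (0.265), without both outlying arrays (0.0565), and without euthyroid mutant 2 (0.0737), 3 (0.0737) or 4 (0.134) or hypothyroid mutant 5 (0.114) or 7 (0.0661).

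Between genotypes Ces3b was not called. Its mutant minus control difference was 1.27 ± 0.413 in hypothyroid liver (limma adjusted p = 0.302), where the groups overlapped, and 0.18 ± 0.413 in euthyroid liver (limma adjusted p = 0.934). Hypothyroid control 20, at 6.07, was the lowest array, and without it the hypothyroid difference was 0.64. Over all alternatives that difference ran between 0.64 and 1.65. The mutant effect differed between thyroid states by 1.09 ± 0.584 (unadjusted p = 0.0814 in limma, adjusted p = 1.00), and by 0.463 without hypothyroid control 20. Its alternatives ran between 0.463 and 1.47.

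Ces3a (cluster 10574598), the neighbour of Ces3b in the same subfamily, was lower in hypothyroid than in euthyroid liver in controls. Its signal was 10.50, 9.95 and 10.05 in hypothyroid controls, against 11.66, 11.46 and 11.05 in euthyroid controls, and 10.03, 10.93 and 10.51 in hypothyroid mutants, against 10.67, 11.48 and 11.05 in euthyroid mutants. The control groups did not overlap, and the mutant groups did. Group means were 10.49 in hypothyroid mutants (SD 0.452, n = 3), 10.17 in hypothyroid controls (SD 0.293), 11.07 in euthyroid mutants (SD 0.402) and 11.39 in euthyroid controls (SD 0.312). The difference was -1.22 ± 0.246 in controls, or 2.33-fold lower (limma adjusted p = 0.0239), and -0.58 ± 0.246 in mutants (limma adjusted p = 0.275, not called). Averaged over genotypes it was -0.90 ± 0.174, or 1.87-fold lower (limma adjusted p = 0.00713), and that call held in all 18 alternatives. The control call was kept in 14 of 19 and was lost when every cluster was tested (adjusted p = 0.104), without both outlying arrays (0.0993), and without euthyroid control 14 (0.0764) or hypothyroid control 18 (0.118) or 20 (0.107). The 2 genotypes were not shown to differ in this fall (difference of 0.64 ± 0.348, unadjusted p = 0.0842 in limma, adjusted p = 1.00). The mutant minus control difference was 0.32 in hypothyroid liver and -0.32 in euthyroid liver, with adjusted p of 0.646 and 0.746 in limma.

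Ces1g (cluster 10580678), also called esterase-x, whose loss in mice raises liver and blood lipids, was higher in hypothyroid than in euthyroid liver of both genotypes. Its signal was 10.75, 10.67 and 10.83 in hypothyroid mutants, against 9.97, 10.01 and 9.76 in euthyroid mutants. In controls it was 10.74, 10.42 and 10.86 in hypothyroid arrays, against 9.78, 9.44 and 9.80 in euthyroid arrays. All 6 hypothyroid arrays lay above all 6 euthyroid arrays. Group means were 10.75 in hypothyroid mutants (SD 0.0794, n = 3), 10.67 in hypothyroid controls (SD 0.225), 9.91 in euthyroid mutants (SD 0.135) and 9.67 in euthyroid controls (SD 0.203). Within each thyroid state the genotypes overlapped.

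The hypothyroid minus euthyroid difference of Ces1g was 0.83 ± 0.146 in mutants, or 1.78-fold (limma adjusted p = 0.011), and 1.00 ± 0.146 in controls, or 2.0-fold (limma adjusted p = 0.00204). Averaged over genotypes it was 0.92 ± 0.104, or 1.89-fold (limma adjusted p = 0.000102). The control call held in all 19 alternatives and the averaged call in all 18. The mutant call was lost in 3 of 19, with the array SD as a covariate (0.55, adjusted p = 0.374) and without euthyroid mutant 4 (0.0681) or hypothyroid mutant 7 (0.0661). The Kupffer markers had 2 of 7 genes, Clec4f and Cd5l, called lower in hypothyroid liver in the average, and their part in the thyroid results was not tested. Between genotypes Ces1g was not called, with a mutant minus control difference of 0.07 in hypothyroid liver (95% interval -0.24 to 0.39) and 0.24 in euthyroid liver (-0.07 to 0.55).

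**Figure D2:**
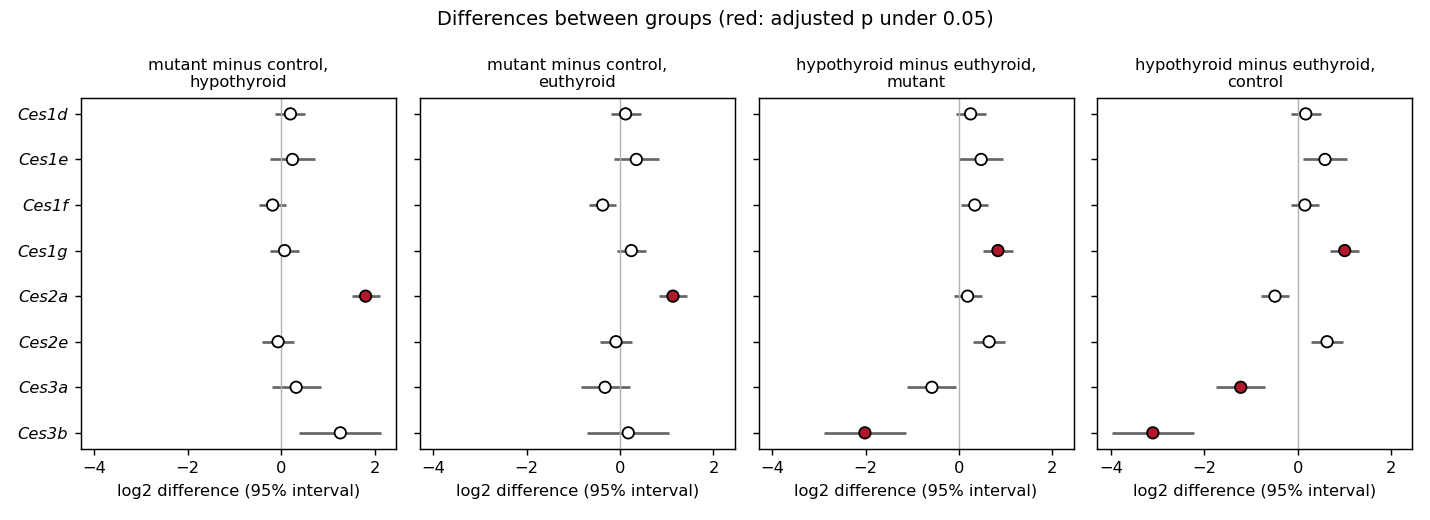
Log2 difference (horizontal axes, with 95% intervals from limma) of each of the 8 carboxylesterase clusters in 4 comparisons, left to right mutant minus control in hypothyroid and in euthyroid liver, then hypothyroid minus euthyroid in mutants and in controls; red points have an adjusted p under 0.05. Ces2a stands at 1.81 and 1.13 in the genotype panels, and Ces3b at -2.01 and -3.11 in the thyroid panels.

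The remaining genes of the first subfamily were not called. Ces1d (cluster 10580635) is the triacylglycerol hydrolase that supplies lipid for lipoprotein assembly in mouse liver. Its signal was 11.43, 11.37 and 11.36 in hypothyroid mutants, against 11.20, 11.25 and 11.10 in hypothyroid controls. In euthyroid liver it was 11.30, 11.12 and 10.98 in mutants, against 11.28, 10.68 and 11.09 in controls. Hypothyroid mutants lay above hypothyroid controls without overlap, yet the difference was 0.20 ± 0.150 (limma adjusted p = 0.643). The thyroid difference averaged over genotypes was 0.21, with a 95% interval of -0.02 to 0.44 and an adjusted p of 0.236 in limma. With the array SD as a covariate, all 4 differences of Ces1d within a genotype or thyroid state turned round, to between -0.0361 and -0.00841.

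Ces1e (cluster 10580649), known as egasyn, holds beta-glucuronidase in the endoplasmic reticulum. It had 10.06, 9.92 and 10.20 in hypothyroid mutants, against 9.71, 9.52 and 9.52 in euthyroid mutants, and 9.92, 9.68 and 9.86 in hypothyroid controls, against 9.73, 8.54 and 9.44 in euthyroid controls. Mutant arrays separated by thyroid state and control arrays overlapped, and euthyroid control 14, at 8.54, stood lowest. The thyroid difference averaged over genotypes was 0.53 ± 0.158 (limma adjusted p = 0.0598, not called); its value was 0.47 in mutants and 0.58 in controls. It was called without euthyroid control 13 (0.65) and among clusters above the median level, and was 0.35 without euthyroid control 14, where it was not called. The control difference was 0.83 without euthyroid control 13 and 0.23 without euthyroid control 14. Between genotypes it was 0.24 in hypothyroid liver and 0.35 in euthyroid liver, with adjusted p of 0.703 and 0.701 in limma, and the euthyroid value was 0.00134 without euthyroid control 14.

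Ces1f (cluster 10580663), a second mouse triacylglycerol hydrolase, had 10.41, 10.54 and 10.56 in hypothyroid mutants, against 10.71, 10.73 and 10.62 in hypothyroid controls. In euthyroid liver it had 10.12, 10.39 and 9.97 in mutants, against 10.68, 10.33 and 10.59 in controls. Every hypothyroid mutant array lay below every hypothyroid control array. In that comparison 1 of the 8 members lay wholly lower and 3 wholly higher, and 22.5% of all clusters had groups that did not overlap. Neither difference, -0.18 in hypothyroid and -0.37 in euthyroid liver, was called (limma adjusted p = 0.640 and 0.557). Averaged over thyroid states it was -0.28 ± 0.0972 (limma adjusted p = 0.178). The hypothyroid minus euthyroid difference of Ces1f was 0.34 in mutants (95% interval 0.05 to 0.63) and 0.15 in controls (-0.14 to 0.44), neither called.

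Read against the table, the thyroid calls among members were 1 higher and 1 lower of 8 in mutants, where 0.652% of all clusters were called higher and 0.454% lower. In controls they were 1 higher and 2 lower, against 0.638% and 0.473% of all clusters. Averaged over genotypes they were 2 higher (Ces1g and Ces2e) and 2 lower (Ces3a and Ces3b), against 4.18% and 1.87%. The median difference of the 8 members between thyroid states was 0.29 in mutants and 0.16 in controls, beside -0.0164 and -0.00680 over all clusters. Between genotypes it was 0.22 in hypothyroid liver and 0.15 in euthyroid liver, beside -0.0201 and 0.000161. The members were chosen with earlier results of these data known, so these counts and medians describe the 8 genes. The 2 genotype comparisons share no arrays with each other, but each shares its arrays with the thyroid comparisons.

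**Figure D3:**
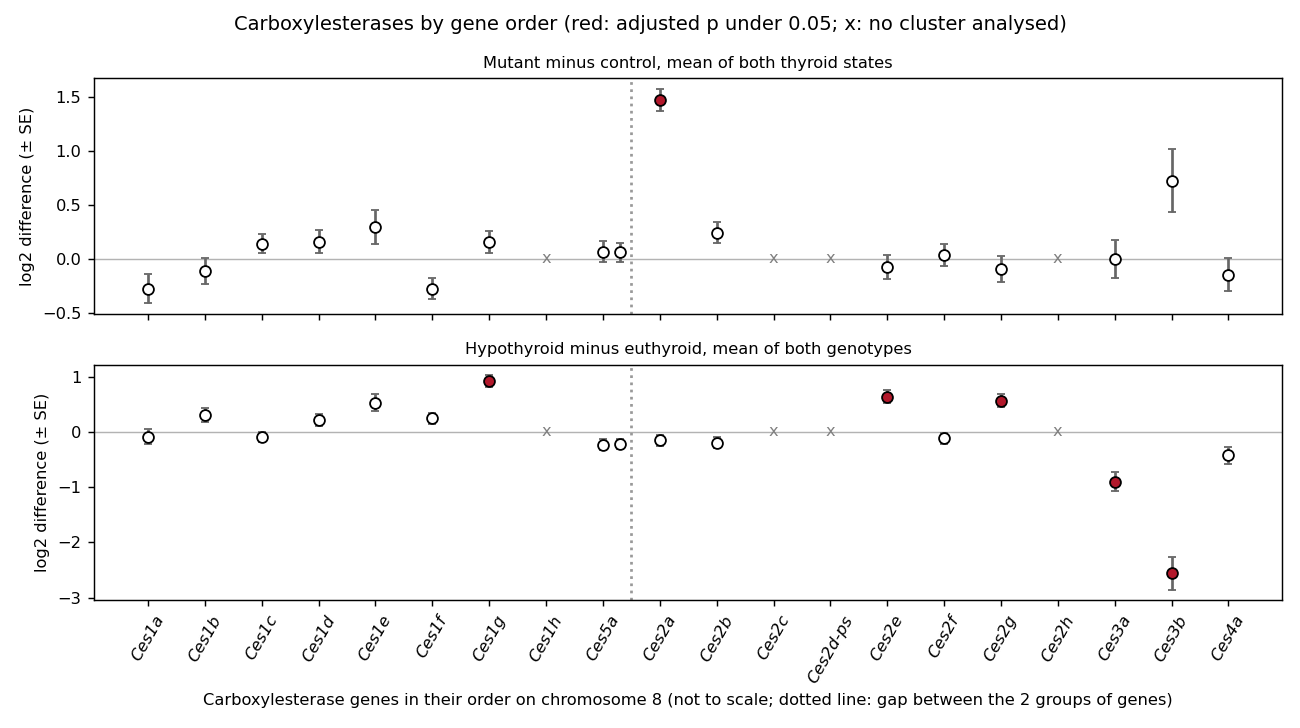
Log2 difference ± SE (vertical axes) of every carboxylesterase cluster with the genes in their order on chromosome 8 (not to scale; the dotted line is the gap of 68 protein-coding genes, x marks genes not analysed here). Upper panel, mutant minus control, where Ces2a alone is called (1.47); lower panel, hypothyroid minus euthyroid, where Ces1g, Ces2e and Ces2g are higher and Ces3a and Ces3b lower.

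Of 11 further carboxylesterase genes, 8 were measured by 9 clusters (Ces5a has 2), and 1 was called. Ces2g, which lies between Ces2e and Ces3a, had 8.69, 8.65 and 8.92 in hypothyroid mutants, against 8.07, 8.35 and 8.45 in euthyroid mutants, and 8.94, 9.13 and 8.78 in hypothyroid controls, against 8.46, 7.93 and 8.45 in euthyroid controls. All hypothyroid arrays lay above all euthyroid ones, and averaged over genotypes the difference was 0.57 ± 0.117, or 1.48-fold (limma adjusted p = 0.011). That call was lost with the array SD as a covariate. Ces2b, which lies next to Ces2a, ranged between 3.21 and 3.95, below every array median, and its mutant minus control difference averaged over thyroid states was 0.24 (limma adjusted p = 0.234). Ces1c, which is secreted into mouse plasma, ranged between 12.10 and 12.62 and Ces1b between 9.38 and 10.35, and neither was called. The clusters of Ces1a, Ces2f, Ces4a and Ces5a ranged between 2.69 and 5.02, near or below the array medians.

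Among themselves, the members' 4 pairs of largest absolute Pearson r over the 12 arrays were Ces1d with Ces1e, Ces1g with Ces3b, Ces3a with Ces3b, and Ces1e with Ces1g. Ces1d and Ces1e had 0.90, and 0.85 after the group means were removed. Ces1g ran opposite to Ces3b, at -0.85 over the arrays and -0.50 within groups. Ces3a and Ces3b had 0.84, and 0.47 within groups, and Ces1e and Ces1g 0.81 and 0.72. Other pairs changed sign when the group means were removed, chosen here after their values were seen. Ces2e and Ces3b had -0.66 over the arrays and 0.81 within groups, Ces1g and Ces2e 0.76 and -0.39, and Ces2a and Ces2e -0.14 and 0.61. These coefficients describe 12 arrays that share their groups and normalization.

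The clusters whose pattern was most like each member were taken as the 3 with the highest Pearson r over the 12 arrays, with no test. For Ces2a they were Vtcn1 (0.947), Ddx24 (0.931) and the fatty acid synthase Fasn (0.930). For Ces1g they were Pir (0.985), the glutathione transferase Gstm4 (0.971) and Creg1 (0.969). For Ces3a they were Snap47 (0.968), the organic anion transporter Slco1a1 (0.957) and Itih1 (0.938), and for Ces3b both clusters of the acyl-CoA synthetase Acsf2 (0.964 and 0.961) and the nudix hydrolase Nudt7 (0.952). For Ces2e they were Gtf2a1 (0.969), Tgif1 (0.959) and Btbd3 (0.933). For Ces1d they were Fyttd1 (0.971), Pex13 (0.953) and Bdp1 (0.952), for Ces1e Eea1 (0.979), Scaf11 (0.978) and Ttc37 (0.976), and for Ces1f Il1rap (0.953), the complement subunit C8a (0.941) and Tmem19 (0.940). No member was among the 3 of another member.

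Other genes of the same chemistry give the members their setting, with differences averaged over the second factor. Of 14 listed hydrolases of neutral lipids and sterol esters, 13 were measured, and 2 were higher in mutants, Pnpla3, a lipid droplet protein (1.85, limma adjusted p = 0.000126), and lipoprotein lipase Lpl (1.35, limma adjusted p = 0.0282). Lpl overlapped between groups and was called in 7 of 18 alternatives, and the list median was 0.23. In hypothyroid liver 2 of the 13 were higher, with Lpl at 2.59, and 5 were lower, among them the monoglyceride lipases Mgll (-1.44) and Abhd6 (-1.10) and the endothelial lipase Lipg (-1.16), with a median of -0.0697. Medians over all clusters were -0.0146 for genotype and -0.0195 for thyroid state. In these averaged comparisons 0.904% of all clusters were called higher and 0.234% lower between genotypes, and 4.18% higher and 1.87% lower between thyroid states, which is the setting for the counts of every list here.

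Of 9 other ester and epoxide hydrolases, measured by 10 clusters, none was called between genotypes, where Ephx1 differed by 0.36 and the 2 clusters of Esd by 0.28 and 0.14 (median 0.10). In hypothyroid liver 5 of the 9 genes were higher and none lower, with microsomal epoxide hydrolase Ephx1 at 1.02, S-formylglutathione hydrolase Esd at 0.75 and 0.64, paraoxonase Pon3 at 0.45 and butyrylcholinesterase Bche at 0.44 (median 0.41). With the array SD as a covariate, the calls of Ephx1, Esd, Pon3 and Bche were all lost. Pon3 was kept in 5 of 18 alternatives and Bche in 9, while Ephx1 and Esd were kept in 17. Of 15 genes of lipoprotein assembly and lipid droplets none was called between genotypes (Fitm1 0.42, Sar1b 0.38, median 0.0361), and 2 were higher in hypothyroid liver, Fitm1 (0.82) and Sar1b (0.44), with a median of -0.0209. Both were lost with the array SD as a covariate.

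The nuclear receptors CAR (Nr1i3) and PXR (Nr1i2) and their targets, a group known to induce carboxylesterases of the Ces2 subfamily in mouse liver, held 17 measured genes of 19. In mutants 2 were higher, the cytochromes Cyp3a11 (0.74 ± 0.135, limma adjusted p = 0.0151) and Cyp3a25 (0.63 ± 0.0919, limma adjusted p = 0.00332), and Nr1i3 was lower (-0.65, limma adjusted p = 0.0365), with a median of 0.10. The Nr1i3 call was kept in 6 of 18 alternatives and that of Cyp3a11 in 15. By thyroid state, Cyp3a11 differed by 1.39 in hypothyroid liver (limma adjusted p = 0.00521) and by 0.0845 in euthyroid liver (0.930). The 2 states differed by 1.30 (unadjusted p = 0.00023 in limma), not called after adjustment. For Cyp3a25 the values were 0.89 (limma adjusted p = 0.00676) and 0.37 (0.536). Averaged over genotypes, 7 of the 17 were called higher in hypothyroid liver and none was called lower, with a list median of 0.16. Among the 7 were the glutathione transferase Gstm1 (1.11), the transporter Abcc3 (0.99), Cyp2c29 (0.57) and Nr1i3 (0.51). This Nr1i3 call was kept in 4 of 18 alternatives, and that of Cyp2c29 was lost with the array SD as a covariate. Within controls Cyp3a11 was called lower in hypothyroid liver (-0.92, limma adjusted p = 0.0293), and within mutants it was not called (0.39). The largest averaged thyroid differences of the list were falls that were not called, Cyp2b9 (-2.94, limma adjusted p = 0.220) and Cyp2b13 (-1.67, limma adjusted p = 0.405). Hypothyroid control 17 and hypothyroid mutant 6 had Cyp2b9 at 2.56 and 3.27, against 10.49 to 11.97 on every other array. Their Cyp2b13 was 2.48 and 2.19, against 6.79 to 10.07 elsewhere. Why these arrays stood apart was not tested.

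**Figure D4:**
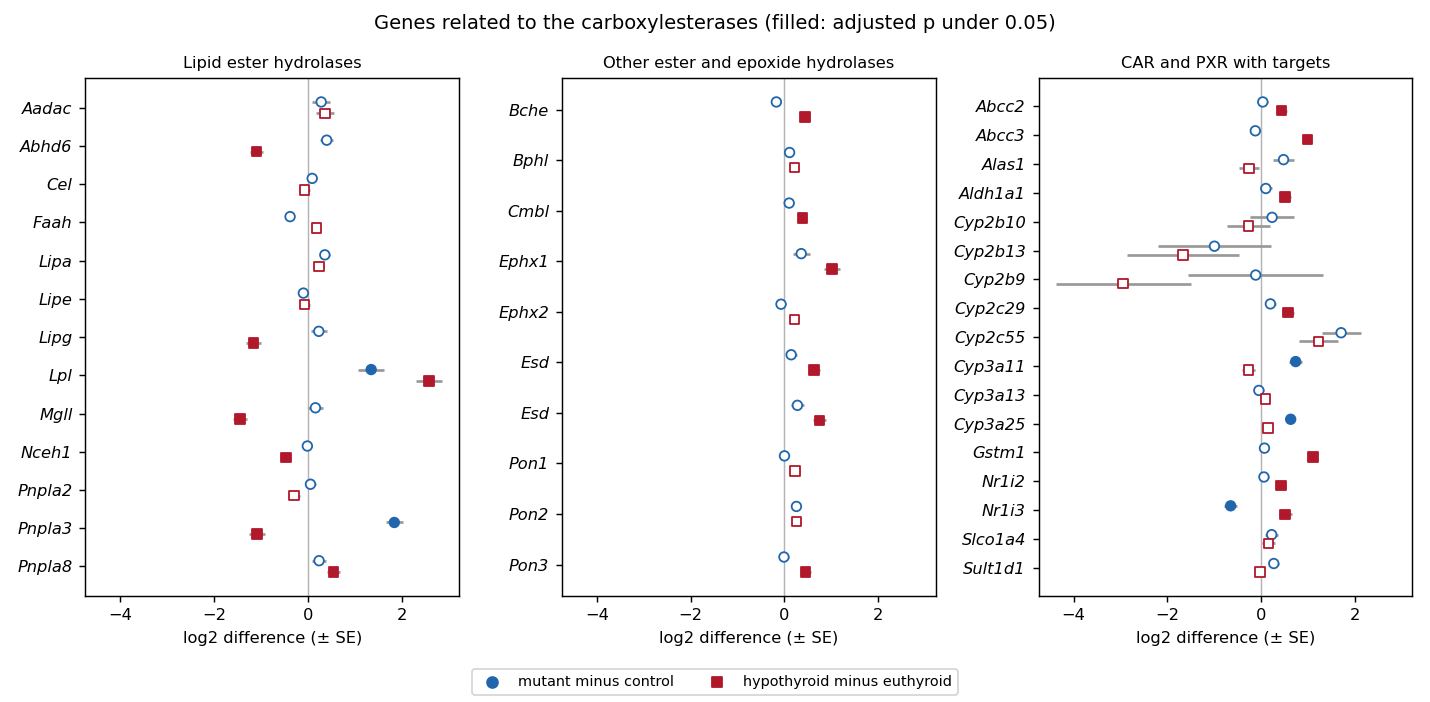
Log2 difference ± SE (horizontal axes) of measured genes related to the carboxylesterases in 3 lists, with mutant minus control as circles and hypothyroid minus euthyroid as squares, each averaged over the other factor; filled symbols have an adjusted p under 0.05. Lpl (1.35 and 2.59) and Nr1i3 (-0.65 and 0.51) are among the genes filled in both comparisons, while Ephx1, Esd, Gstm1 and Abcc3 are filled for thyroid state alone.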

How the data were processed

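Liver gene expression was measured on 12 arrays, 3 in each of 4 groups taken from the sample titles. The deposited log2 signals were made with RMA by the authors (submitters' processing notes, no version stated), and they were used as deposited, with 0 missing values. Arrays carry no read depth, so their number limits the precision. Group means were fitted to all 12 arrays with limma 3.58.1 in R 4.3.3 over the 21789 clusters with 1 symbol, of 35557 (1621 have several symbols and 12147 none). Variances were moderated (prior degrees of freedom 6.83, residual 8), and p-values were adjusted by Benjamini-Hochberg within each comparison and called under 0.05. The fit was tested on simulated data. Every adjusted p-value is limma's. No array batch or scan date is given in the sources used here, and the signal of the altered gene itself was not checked.

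The text names every cluster of a listed or further carboxylesterase. Of each other list it names up to 4 called genes with the largest differences, or 2 as values where none was called, and for each member the 3 clusters of highest Pearson r. Cyp2b9 and Cyp2b13 are named besides, because 2 arrays stood apart in them. The members and all lists were chosen with earlier results of these data known. Lists of cholangiocyte, endothelial, stellate, erythroid, adipocyte, pancreatic acinar and intestinal markers held 0 called genes in every comparison. Promoter sequences and gene order are from RefSeq, GRCm38.p6. Alternatives were quantile normalization, centring arrays on their median, a filter keeping clusters above the median level, all clusters of the table, the compared groups alone, the array SD as a covariate, both outlying arrays left out, and each array left out in turn. Because the array SD followed the groups, that covariate also takes up part of the group differences. A call lost or a sign changed under it cannot be told apart from this overlap.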

Additional observations from a re-analysis of the deposited data

Results flagged for a closer look

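The hypothyroid minus euthyroid difference of Ces2a ran in opposite directions in the 2 genotypes. It was 0.18 in mutants and -0.49 in controls, and the genotypes differed by 0.675 (SE 0.198, unadjusted p = 0.0039 in limma, adjusted p = 1.00 over 21789 clusters). Each hypothyroid mutant array lay above the mean of euthyroid mutants, and each hypothyroid control array below the mean of euthyroid controls.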

How the results depend on the processing

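No paired analysis was possible because the groups share no replicate numbers. The count of members called between genotypes stayed at 1 in each thyroid state and in their average under all alternatives run, and that member was Ces2a. Between thyroid states in mutants the count was 2; it was 3 with the compared groups alone, 1 with every cluster tested, 0 with the array SD as a covariate, 1 without both outlying arrays, and 0 to 3 with 1 array left out. In controls the count was 3; it was 4 after quantile normalization, 2 with every cluster tested, 2 without both outlying arrays, and 2 to 5 with 1 array left out, the 5 without euthyroid control 13. Averaged over genotypes the count of 4 ran between 3 and 5. The differences that changed sign belonged to values that were not called, among them Ces1e in mutants (0.47) and Ces4a in the average (-0.42), and the cause was not tested. With the array SD as a covariate, mutant minus control became -0.0265 for Ces1d, -0.21 for Ces1e and -0.15 for Ces1g in hypothyroid liver, -0.00841 for Ces1d in euthyroid liver, and -0.0601 for Ces1e, -0.0459 and -0.14 for the Esd clusters and 0.0365 for Ces1a in the average. Under the same covariate, hypothyroid minus euthyroid became -0.0361 for Ces1d and -0.10 for Ces1e in mutants, -0.0180 for Ces1d and -0.0694 for Ces1f in controls, and -0.0270 for Ces1d, -0.0333 for Ces1f and 0.0754 for Ces4a in the average. Quantile normalization turned Ces1f in controls to -0.0221, and leaving out both outlying arrays turned Ces1d in euthyroid liver to -0.0502. With 1 array left out, mutant minus control ran between -0.0502 and 0.25 for Ces1d in euthyroid liver, between -0.0524 and 0.16 for Ces1g in hypothyroid liver and between -0.23 and 0.0943 for Ces2e in hypothyroid liver. Ces2e between thyroid states was called without hypothyroid control 20 in both genotypes (adjusted p = 0.0483 in mutants and 0.0382 in controls), without euthyroid control 14 in mutants (0.0460), with the compared groups alone in mutants (0.0407) and without euthyroid control 13 in controls (0.0403). Counts over the table depended more on the setting: the 57 clusters called between genotypes in hypothyroid liver ran between 9 and 174, the 28 in euthyroid liver between 6 and 192, the 241 between thyroid states in mutants between 36 and 620, and the 242 in controls between 134 and 864. The averaged counts of 248 and 1317 ran between 41 and 1866 and between 181 and 3579, with the lowest under the array SD covariate. For the difference of the mutant effect, the table count of 0 was 1 without euthyroid control 13.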
